A study of Mus musculus with 20 samples.

Results

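Keratins form the intermediate filaments of the epidermis, and 10 of their genes were followed in mouse ear tissue: Krt1, Krt2, Krt5, Krt6a, Krt6b, Krt10, Krt14, Krt16, Krt17 and Krt77. They were picked by symbol from the authors' gene tables, and all 10 were found among the 19234 genes of the AD table, the 19501 of the ACD table and the 18835 shared by both. The ears came from C57BL/6 mice of 6 to 7 weeks and 16 to 18 g, in 2 disease models that the labels name only as AD and ACD. In the AD model 5 libraries came from mice given SB415286, an inhibitor of the kinase GSK3, at 0.7 mg/kg into the abdominal cavity, and 5 from controls. In the ACD model 5 libraries came from mice given SB415286 at 2 mg/kg and 5 from controls, and all ears were collected 4 h after injection. The controls are untreated by their labels and vehicle-treated by the design text, and 1 protocol sentence attaches both doses to the AD model. How either model was induced is not given in the sources used here. The labels do not say that each library is a separate mouse, so the p-values measure the spread between these libraries.

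A keratin filament is built from pairs of a type I and a type II keratin, and the pair changes as a keratinocyte leaves the basal layer. Basal cells make Krt5 (type II) and Krt14 (type I), and cells above them switch to Krt1 (type II) and Krt10 (type I). Krt2 joins this pair late, and in mice mainly in ear, tail and sole skin, and Krt77 is another type II keratin of suprabasal cells. Krt6a, Krt6b, Krt16 and Krt17 are present at rest in hair follicles and some other epithelia, and in the epidermis they are known for their induction after wounding or in hyperproliferation. Below, Krt1, Krt2, Krt10 and Krt77 are called suprabasal, Krt5 and Krt14 basal, and the other 4 wound keratins.

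Libraries held 18.2 to 20.9 M counts, and the 10 keratins took 1.59% to 5.59% of them. None of 14 keratinocyte markers other than keratins was at 0 in every library of a group, and the same held for markers of cartilage, muscle, fibroblasts and sebaceous gland. In such bulk tissue fewer cells of a type and less RNA per cell cannot be told apart. An AD library from each group stood apart from the rest of it. AD SB415286 7 had a median correlation of 0.948 with its own group and 0.947 with the controls, where the other 4 AD SB415286 libraries had 0.977 to 0.981 with their own. AD control 6 correlated at 0.960 with its own group and at 0.975 with the SB415286 group. AD results are therefore also given without both libraries. Both were chosen from these same data: control 6 lay closer to the other group, and SB415286 7 about as close to it as to its own. Leaving out such libraries can widen the difference between the groups by selection alone. The number of genes passing went from 187 to 3894, so calls from that fit are a description and not independent support. In the ACD model all 5 SB415286 libraries correlated slightly more with the controls (median 0.976 to 0.986) than with each other (0.974 to 0.984), so no single one stood apart there.

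The 10 genes lie in 2 clusters of the mouse genome (GRCm38.p6), all on the minus strand. The 6 type II genes are on chromosome 15 between 101676023 and 101869706, a stretch of 194 kb, and the 4 type I genes on chromosome 11 between 99385254 and 100261029, a stretch of 876 kb. Krt6a and Krt6b are neighbours and near-copies, with 97.6% identical coding bases, 37 mismatches and 3 gap columns. The following 60-base stretch of both coding sequences (coding bases 817 to 876) is shown because it is among the places where reads can tell the genes apart, with the 10 differing bases in capitals.
Krt6a: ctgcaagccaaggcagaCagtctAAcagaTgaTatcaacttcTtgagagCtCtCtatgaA
Krt6b: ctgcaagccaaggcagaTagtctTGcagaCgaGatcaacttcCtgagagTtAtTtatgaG
Elsewhere the copies run together for up to 280 identical bases. Of all 100-base windows of the Krt6a transcript, 34.0% occur in the transcript of another gene, and the share was 30.6% for Krt6b, 24.3% for Krt16 (shared with Krt14 and Gm11597), 2.88% for Krt14 and 2.38% for Krt5. It was 0% for Krt1, Krt2, Krt10, Krt17 and Krt77. The authors' estimated counts divide shared reads, so the separate levels of Krt6a, Krt6b and Krt16 are less certain than those of the other 7.

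Start regions of 5 of the 10 genes were in RefSeq's promoter table (GRCm38.p6), those of Krt2, Krt5, Krt10, Krt14 and Krt77. The 3 suprabasal ones are printed because these genes moved together between the models, with the letters TATATA or TATAAA in capitals. They lie at chr15:101818120-101818419, chr11:99389315-99389614 and chr15:101869656-101869955, minus strand, and are written in the direction of transcription.
Krt2: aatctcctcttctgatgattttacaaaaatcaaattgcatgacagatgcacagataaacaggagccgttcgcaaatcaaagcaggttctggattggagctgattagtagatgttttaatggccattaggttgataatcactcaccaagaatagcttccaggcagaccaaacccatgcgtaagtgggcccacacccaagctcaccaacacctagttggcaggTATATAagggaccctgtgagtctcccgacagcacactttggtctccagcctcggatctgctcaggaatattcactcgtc
Krt10: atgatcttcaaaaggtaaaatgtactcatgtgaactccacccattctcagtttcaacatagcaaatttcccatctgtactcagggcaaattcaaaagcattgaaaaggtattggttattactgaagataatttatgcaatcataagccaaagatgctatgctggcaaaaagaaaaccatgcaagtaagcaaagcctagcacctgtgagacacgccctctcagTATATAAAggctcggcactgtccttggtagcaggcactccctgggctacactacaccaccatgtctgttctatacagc
Krt77: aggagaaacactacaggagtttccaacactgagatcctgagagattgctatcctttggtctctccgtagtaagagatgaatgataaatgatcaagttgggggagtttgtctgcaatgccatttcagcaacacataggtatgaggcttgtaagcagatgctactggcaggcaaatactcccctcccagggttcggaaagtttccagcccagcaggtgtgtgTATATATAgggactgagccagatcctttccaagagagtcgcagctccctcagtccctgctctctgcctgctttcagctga
TATATA began 29 bases before the start of Krt2, 28 before that of Krt10, where TATAAA followed at 26, and 30 and 28 before that of Krt77 in overlapping copies. Neither was found in the windows of Krt5 and Krt14, where only these exact letters were searched. The window of Krt5 holds the near match ATAAAA, so these windows do not set suprabasal apart from basal keratins. The starts used for Krt2, Krt10 and Krt14 lie inside the RefSeq spans of these genes and not at their ends, so other starts of these genes were not searched. Among 32851 RefSeq windows of the same length, 5.67% held TATATA and 8.32% held TATAAA on the coding strand. TGANTCA, the letters bound by AP-1 factors, was searched on both strands, was in none of the 5 windows and was in 7.81% of all. These are matches of letters only.

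Per length, keratins were among the most abundant transcripts of these ears. In AD controls the mean level of Krt14 was 9791 ± 1035 TPM (the authors' length-scaled transcript share, SD, n = 5), which ranked 2 among all genes of the table. Krt10 followed with 7301 ± 1612 TPM, Krt1 with 5298 ± 1108, Krt16 with 3912 ± 668, Krt6b with 3791 ± 684, Krt6a with 3001 ± 281, Krt5 with 2865 ± 409, Krt2 with 2827 ± 1088, Krt17 with 1169.9 ± 165 and Krt77 with 37.9 ± 17.8. Only for the steps from Krt2 to Krt17 and from Krt17 to Krt77 did the ranges of mean ± SD stay apart. The ranges of the other neighbours overlapped, and inside libraries the upper one was above the next in 3 or 4 of 5.

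In ACD controls the order was different below Krt14. Krt14 was again first, at 7639 ± 777 TPM (SD, n = 5), and then came Krt16 with 3482 ± 436, Krt6b with 3102 ± 563, Krt5 with 2626 ± 313 and Krt6a with 1927 ± 531. The suprabasal Krt10 had moved to place 6 with 1231 ± 593 TPM, next to Krt1 with 1163 ± 300.0 and Krt17 with 1162 ± 277. Krt2 had 609 ± 299 TPM and Krt77 2.90 ± 1.38. The ranges of mean ± SD stayed apart only between Krt14 and Krt16 and between Krt2 and Krt77. Inside libraries, though, Krt16 was above Krt6b in all 5 ACD controls.

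**Figure D1:**
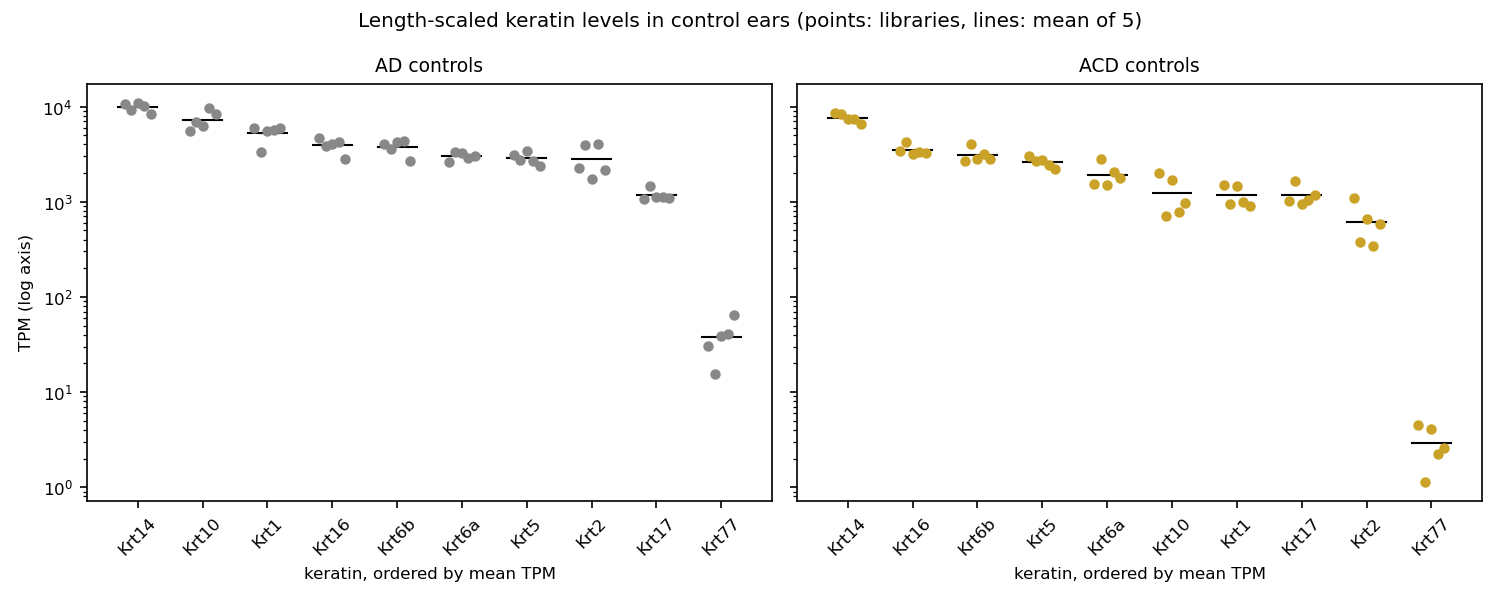
TPM (log axis) of the 10 keratins in the 5 AD control and 5 ACD control libraries, ordered by their mean, with points for libraries and lines for means. Krt10 and Krt1 hold places 2 and 3 in AD controls and places 6 and 7 in ACD controls, and Krt77 is the lowest in both.

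With SB415286 the TPM order kept Krt14 first and Krt77 last in both models. In the AD model Krt1 (4986 ± 2676 TPM) and Krt10 (4959 ± 2460.0) followed Krt14 (9217 ± 2274), and Krt2 (1226 ± 658) came after Krt17 (1578 ± 466). In the ACD model Krt14 had 6264 ± 1447 TPM, Krt16 2957 ± 685, Krt5 2273 ± 596, Krt6b 2271 ± 560.2, Krt6a 1577 ± 221, Krt1 1065 ± 413, Krt17 981 ± 78.8, Krt10 942 ± 391, Krt2 362 ± 137 and Krt77 4.69 ± 0.576. The rest of the AD SB415286 group was Krt16 with 4334 ± 1653 TPM, Krt6a with 3770.4 ± 1159.9, Krt6b with 3676 ± 1504, Krt5 with 1933 ± 350.2 and Krt77 with 16.5 ± 17.3.

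The clearest contrast among the keratins lay between the control ears of the models: all 4 suprabasal keratins were lower in ACD than in AD controls, while neither the 2 basal nor the 4 wound keratins passed the test. Krt1 was 3.80-fold lower, Krt2 3.89-fold, Krt10 4.92-fold and Krt77 11.1-fold lower. The model, the table and any batch cannot be told apart in this comparison, since each model has a table of its own. It is also a comparison in which most genes differed: 61.6% of 15700 tested genes passed an adjusted p of 0.05, and 32.0% passed and were lower, so that 4 of 10 keratins passing is no more than the background. The size was less common, since 2.95% of the tested genes passed and were at least as low as Krt1, the smallest of the 4 changes.

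Krt1, a partner of Krt10 in the spinous layers, was at 8034, 3939, 7069.7, 7592 and 7215 CPM (counts scaled to library size, by TMM over all 20 libraries) in AD controls 1, 2, 4, 5 and 6. In ACD controls 1, 3, 4, 5 and 6 it was at 2251, 1452, 2346, 1483 and 1367 CPM. Every ACD library was below every AD library, and the log2 fold change was -1.93 ± 0.37 (SE, edgeR's quasi-likelihood test, adjusted p = 0.000211). Krt10 was at 6345, 6867, 6788, 11003 and 8579.6 CPM in AD controls and at 2593, 929, 2294, 999 and 1232 CPM in ACD controls. These groups also lay apart, with a log2 fold change of -2.30 ± 0.40 (adjusted p = 9.60e-05).

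Krt2, a late suprabasal keratin prominent in mouse ear, was at 3042, 4771, 2290.2, 5640.1 and 2681 CPM in AD controls and at 1666, 587, 1059, 529 and 894 CPM in ACD controls. The highest ACD library stayed below the lowest AD library, and the log2 fold change was -1.96 ± 0.42 (adjusted p = 0.000638). Krt77 was at 43.9, 19.5, 52.5, 59.7 and 82.2 CPM in AD controls and at 7.09, 1.86, 7.07, 3.14 and 4.07 CPM in ACD controls. It had the largest change of the 10 keratins, with a log2 fold change of -3.47 ± 0.61 (adjusted p = 8.97e-05) and no overlap. The 4 suprabasal keratins were the only members whose control groups did not overlap, where 47.3% of all tested genes did not overlap.

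The basal keratins showed no such step. Krt5 was at 3772, 2909, 3895, 3236 and 2579 CPM in AD controls and at 4088, 3741, 3934, 3307 and 2985 CPM in ACD controls, which overlap (log2 fold change 0.14 ± 0.17, 95% interval -0.21 to 0.49, adjusted p = 0.481). Krt14 was at 8366, 6547, 8448, 8502 and 6169.5 CPM in AD controls and at 7467, 7444, 6775, 6628 and 5893 CPM in ACD controls, which overlap as well (-0.15 ± 0.18, interval -0.53 to 0.22, adjusted p = 0.470). Neither interval reached down to the value of Krt1.

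The wound keratins were at similar CPM in the controls of both models. Krt6b was at 2974 to 5409 CPM in AD controls and 3641 to 5731 in ACD controls (log2 fold change -0.03 ± 0.25), Krt16 at 2175 to 3929 and 3069 to 4151 (0.09 ± 0.22), and Krt17 at 781 to 1006 and 870.4 to 1479.8 (0.24 ± 0.17). Krt6a was at 3200.4 to 3761 CPM in AD controls and at 2100.1, 3959, 2182, 2879.7 and 2443 CPM in ACD controls, with 4 of 5 ACD libraries below all AD libraries (-0.37 ± 0.19, adjusted p = 0.0985). Leaving out ACD control 3, the highest ACD library, brought Krt6a past the threshold at -0.54, where 57.4% of tested genes passed. So did limma on log2(FPKM + 1), at -0.47 (adjusted p = 0.0314), where 63.2% passed.

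**Figure D2:**
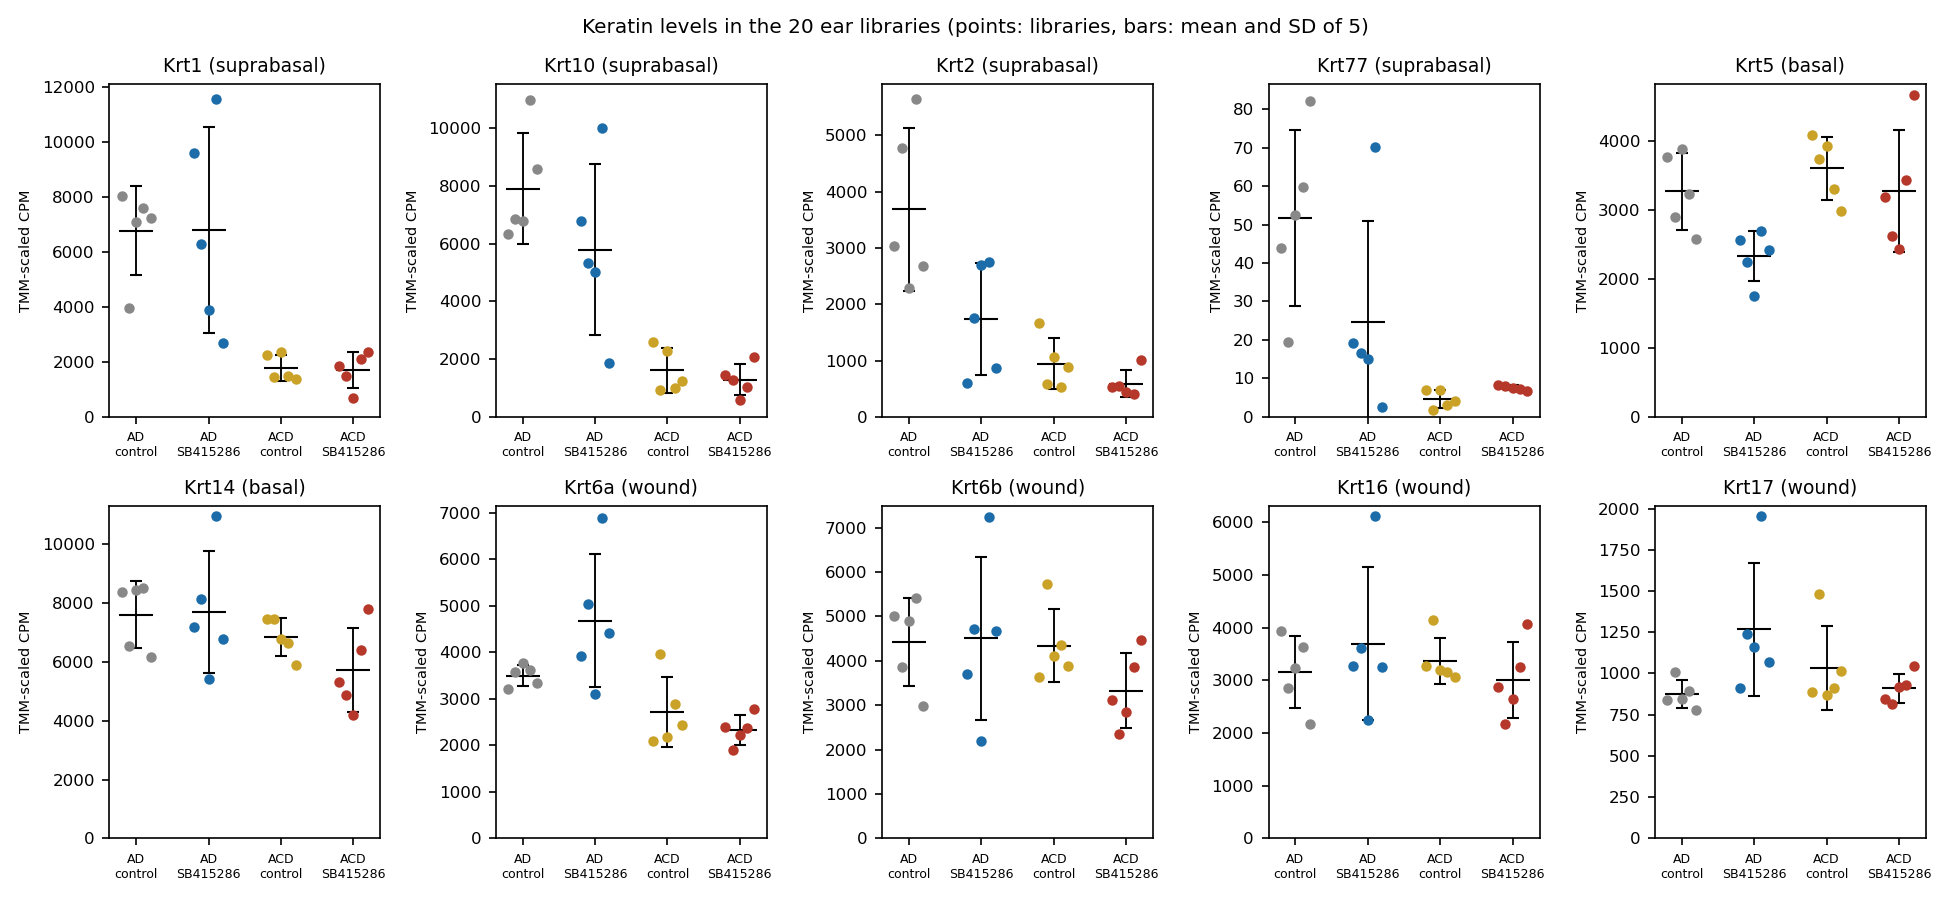
TMM-scaled CPM of each keratin in the 20 libraries (linear axis from 0), by model and treatment, with points for libraries and bars for the mean and SD of 5. For Krt1, Krt10, Krt2 and Krt77 every ACD control lies below every AD control, whereas the control groups of the other 6 keratins overlap.

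Ratios inside a library do not depend on how libraries are scaled, and they showed the same split. The ratio of Krt1 to Krt5, the suprabasal over the basal type II keratin, was 1.92, 1.22, 1.63, 2.11 and 2.52 in AD controls and 0.495, 0.349, 0.536, 0.403 and 0.412 in ACD controls (FPKM over FPKM). That of Krt10 to Krt14, the type I counterpart, was 0.522, 0.738, 0.582, 0.951 and 1.01 in AD controls and 0.237, 0.0852, 0.230, 0.104 and 0.146 in ACD controls. Both ratios lay apart without overlap, 4.20-fold and 4.98-fold higher in AD controls. The ratio of Krt2 to Krt1 had a similar mean in both, 0.590 ± 0.371 and 0.512 ± 0.162 (SD, n = 5), while that of Krt77 to Krt1 was 2.89-fold higher in AD controls, at 0.00463 to 0.0108 against 0.00120 to 0.00300. These ratios were tested only within each model, so their comparison between models is a description without a test.

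Genes that work with keratins were counted from lists chosen with earlier results of these data known, in the same comparison of controls. Over all tested genes 32.0% were lower and 29.5% higher, and the counts of the lists are to be read against these shares. Of 16 tested genes of desmosomes and keratin anchorage, 14 were lower in ACD controls and none higher (median log2 fold change -1.23, against -0.04 for all tested genes). They include Cdsn (-2.57 ± 0.25), which encodes corneodesmosin of the outer layers, the desmosomal cadherins Dsg1b (-1.55 ± 0.16) and Dsg2 (-1.47 ± 0.19), and the plaque protein Pkp1 (-1.49 ± 0.18). Of 9 hemidesmosome genes, which anchor basal keratins to the basement membrane, 4 were lower and 1 was higher (median -0.22). They include Dst at -1.25 ± 0.24 and Cd151 at 0.43 ± 0.09, and the share that passed was near the 61.6% of all genes. Of 13 tested other epidermal and adnexal keratins, 9 were lower and none higher (median -1.60), among them Krt75 of the hair follicle (-3.59 ± 0.43), Krt8 (-2.19 ± 0.29), Krt78 (-3.27 ± 0.53) and Krt80 (-1.60 ± 0.22).

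Regulators moved in both directions between the control groups. Of 23 keratinocyte transcription factors, 17 were lower and 4 higher (median -0.60): Zfp750 (-1.39 ± 0.17) and Grhl1 (-1.53 ± 0.21), factors of terminal differentiation, were lower, and Junb (1.19 ± 0.12) and Cebpb (1.32 ± 0.16) higher. Of 14 tested genes for cytokines that act on keratinocytes, their receptors and their signalling, 11 were higher and 1 lower (median 1.44). The higher ones include Il6 (4.06 ± 0.46), Il17ra (1.45 ± 0.15) and the signalling genes Socs3 (2.57 ± 0.32) and Stat3 (0.68 ± 0.09). This list is called cytokines and receptors below. Of 11 genes for EGFR ligands and receptors, 5 were lower and 1 higher (median -0.32), with Erbb2 at -0.75 ± 0.12 and Erbb3 at -1.05 ± 0.21. Of 17 tested genes known to accompany wound keratins, 5 were higher and 5 lower (median -0.36), with S100a8 at 3.38 ± 0.43, S100a9 at 3.68 ± 0.48, Lcn2 at 4.16 ± 0.40 and Il1rn at 1.75 ± 0.24. The EGFR and wound companion lists thus had shares of calls near that of all genes. The wound companions named here are those with the smallest p and were all higher, and none of the 5 lower ones is named. S100a8 and S100a9 are also neutrophil genes.

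Markers of other cells moved with this contrast. All 9 neutrophil markers were higher in ACD controls, with a summed level of 3475 to 5975 CPM against 162 to 581 in AD controls. Of 8 macrophage markers 6 were higher (3752 to 4625 against 2051 to 3222 CPM in sum), and of 8 tested T cell markers 6 were higher (95.5 to 130.4 against 24.4 to 88.2). Non-keratin keratinocyte markers went the other way, with 9 of 14 lower and none higher (median -0.57, summed level 7450.1 to 9323 against 11465 to 15161 CPM), among them Trp63 (-0.89 ± 0.17), which marks basal cells and Dsp (-1.31 ± 0.23). Lists of other tissues also held lower members: 7 of 8 melanocyte, 7 of 11 cartilage, 4 of 7 hair shaft, 4 of 8 adipocyte and 4 of 12 muscle markers. None of these 5 lists had a higher one. Sebaceous gland (5 of 10 lower, 1 higher), endothelial (4 of 8 lower, 2 higher) and fibroblast markers (1 of 8 lower, 4 higher) went both ways. Over all tested genes the shares were 32.0% lower and 29.5% higher, so lower counts were not particular to keratinocytes. None of the markers of these lists was at 0 in every library of a group. The part of these shifts in the lower suprabasal keratins was not tested.

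The AD comparison asked whether GSK3 inhibition changed the keratins of AD ears. None of the 10 keratins passed edgeR's test, where 1.23% of 15149 tested genes did (89 higher, 98 lower). At an unadjusted p under 0.05 there were 3 of 10, Krt2, Krt5 and Krt17, where 20.1% of all tested genes were under it. The suprabasal keratins had log2 fold changes of -1.09 to -0.00 and the wound keratins of 0.02 to 0.53, with a median of 0.01 over the 10 keratins and 0.00 over all tested genes. No keratin had groups that did not overlap, where 4.65% of tested genes had.

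Krt2 was at 593, 1762, 2703, 2754 and 875 CPM in AD SB415286 libraries 2, 3, 4, 6 and 7, beside the control levels of 2290.2 to 5640.1 CPM given above. Of these 5 libraries 3 were below all controls and the other 2 lay among the lower controls, for a log2 fold change of -1.09 ± 0.44 (adjusted p = 0.203). Krt1 was at 9599, 6291, 3884, 11535 and 2679 CPM, with 2 libraries above all controls and 2 below (-0.00 ± 0.38, interval -0.83 to 0.83). Its mean was 6797 ± 3742 CPM against 6769.7 ± 1626 in controls (SD, n = 5), and its SD was the larger in the SB415286 group.

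Krt10 was at 6775, 5328, 5007, 10021 and 1862 CPM with SB415286, 3 of 5 libraries below all controls (log2 fold change -0.46 ± 0.36, adjusted p = 0.500). Krt77 was at 19.2, 16.7, 15.2, 70.0 and 2.48 CPM, with 4 libraries below all controls and library 6 within their range (-1.07 ± 0.67, adjusted p = 0.392). Library 7, which stood apart, was the lowest in Krt1, Krt10 and Krt77. Without it and control 6, the log2 fold changes were 0.22 ± 0.35 for Krt1, -0.21 ± 0.27 for Krt10, -0.55 ± 0.56 for Krt77 and -1.03 ± 0.46 for Krt2 (adjusted p = 0.126), so that the value of Krt2 hardly moved and those of Krt10 and Krt77 came closer to 0. The value of Krt77 also rested on library 6, without which it was -1.96.

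Among basal keratins, Krt5 was at 2563, 2248, 1759, 2698 and 2419 CPM with SB415286, 4 of 5 libraries below all controls, which began at 2579 CPM. Its log2 fold change was -0.49 ± 0.16 (interval -0.85 to -0.14, adjusted p = 0.129). Krt5 was the keratin whose call depended on the method: it passed in DESeq2 (-0.49, adjusted p = 0.0259), in limma voom with quality weights (-0.62, adjusted p = 0.0161) and without both libraries that stood apart (-0.59 ± 0.17, adjusted p = 0.0317). These fits called 8.10%, 23.6% and 25.7% of all tested genes. Krt14, its type I partner, was at 7194, 8135, 5434, 10966 and 6789 CPM with SB415286, spread on both sides of the controls (0.01 ± 0.20, interval -0.42 to 0.45).

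All 4 wound keratins had positive log2 fold changes (median 0.32), and none passed. By upper quartile scaling, limma voom, limma on FPKM and without both libraries that stood apart, Krt6b turned negative. Krt17, a type I keratin of stressed keratinocytes and hair follicles, was at 837, 1006, 845, 895 and 781 CPM in AD controls and at 914, 1237, 1159, 1957 and 1069 CPM with SB415286. Of the SB415286 libraries 4 were above all controls (0.53 ± 0.19, interval 0.11 to 0.96, adjusted p = 0.162). Krt6a was at 3200.4, 3578, 3761, 3615 and 3335 CPM in controls and at 3929, 5039.6, 3095, 6894 and 4424 CPM with SB415286, 4 libraries above all controls and 1 below (0.41 ± 0.20, adjusted p = 0.269). The SD of Krt6a was 6.46% of the mean in controls and 30.6% with SB415286.

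Krt16, the type I partner of Krt6, was at 3929, 2850.4, 3226, 3632 and 2175 CPM in controls and at 3266, 3624, 2246, 6115 and 3251 CPM with SB415286 (log2 fold change 0.22 ± 0.26, adjusted p = 0.656). Krt6b was at 5005, 3851, 4899, 5409 and 2974 CPM in controls and at 3712, 4723, 2193, 7234 and 4678 CPM with SB415286 (0.02 ± 0.29, adjusted p = 0.973). Both overlapped the controls. Library 6 was the highest of the 5 SB415286 libraries in all 10 keratins, and the 10 keratins took 5.59% of its counts, against 2.63% to 3.85% in the other 4.

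**Figure D3:**
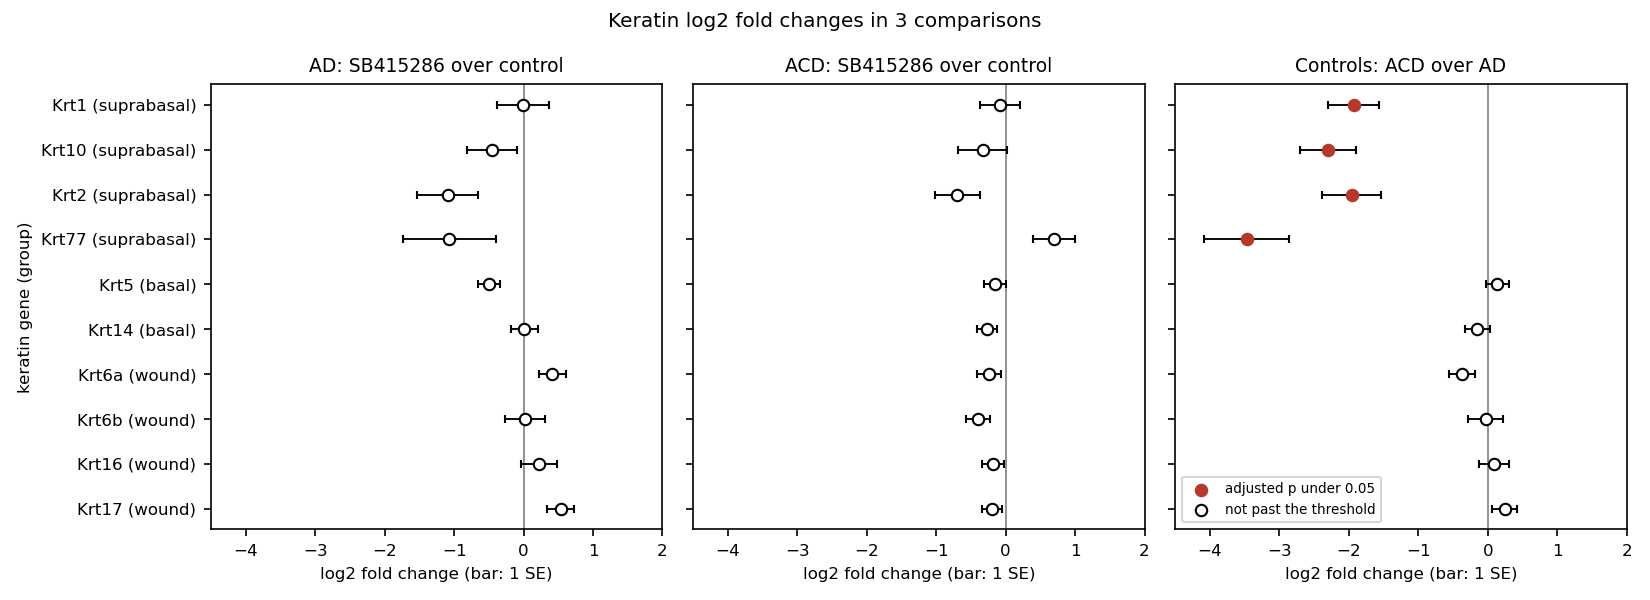
log2 fold changes of the 10 keratins with 1 SE (edgeR), for SB415286 over control in the AD and the ACD model and for ACD over AD controls, with filled points where the adjusted p was under 0.05. The 4 suprabasal keratins in the comparison of controls are the filled points, and no keratin is filled in either SB415286 comparison.

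Pairs of keratins were compared inside libraries by the ratio of their FPKM values, 8 ratios in each model and 16 tests. None passed after Benjamini-Hochberg adjustment over the 16 (smallest adjusted p = 0.0847), and 4 had an unadjusted p under 0.05. With 5 libraries against 5 a single ratio could not pass this adjustment on its own, even with groups fully apart. Not passing therefore does not show that a ratio was unchanged. The ratio of Krt6a to Krt5 was 0.828, 1.20, 0.942, 1.09 and 1.26 in AD controls and 1.50, 2.19, 1.72, 2.49 and 1.79 in AD SB415286 libraries. All 5 were above all 5 controls, a log2 difference of 0.86 ± 0.17 (SE), and the exact 2-sided permutation p of 0.00794 is the smallest that 5 against 5 can give (adjusted p = 0.0847). Of the libraries that stood apart, AD control 6 had the highest control ratio (1.26) and AD SB415286 7 the middle one of its group (1.79). Both parts of this ratio moved: the log2 fold change was 0.41 for Krt6a and -0.49 for Krt5, and neither passed edgeR's test. The ratio is therefore not a measure of Krt6a alone, and Krt5 shares some 100-base windows with Krt6a.

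Other ratios in the AD model overlapped between groups. Krt17 to Krt14 was 0.101, 0.158, 0.104, 0.111 and 0.131 in controls and 0.131, 0.161, 0.221, 0.190 and 0.161 with SB415286 (log2 difference 0.51 ± 0.17, exact permutation p = 0.0159, adjusted p = 0.0847). Krt77 to Krt1 was 0.00505, 0.00463, 0.00688, 0.00733 and 0.0108 in controls and 0.00188, 0.00248, 0.00349, 0.00559 and 0.000863 with SB415286 (-1.47 ± 0.50, exact permutation p = 0.0238, adjusted p = 0.0952). The ratios of Krt6b to Krt5 (0.44 ± 0.22), Krt16 to Krt14 (0.20 ± 0.10), Krt1 to Krt5 (0.33 ± 0.39), Krt10 to Krt14 (-0.58 ± 0.40) and Krt2 to Krt1 (-1.09 ± 0.68) had adjusted p of 0.212 to 0.600 by the same exact test. Without both libraries that stood apart the log2 differences were 0.94 ± 0.20 for Krt6a to Krt5 and 0.57 ± 0.22 for Krt17 to Krt14. Those that moved most were Krt77 to Krt1 (-0.93 ± 0.38), Krt1 to Krt5 (0.75 ± 0.28) and Krt10 to Krt14 (-0.13 ± 0.23). None of the 8 passed in that exact permutation test of 4 libraries against 4 (adjusted p = 0.229 to 0.772). With so few libraries even a ratio with groups fully apart could not pass on its own, so no conclusion is drawn from this.

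The ratio within the basal pair, Krt5 to Krt14, was looked at after its values were seen and has no test. It was 0.295, 0.297, 0.317, 0.265 and 0.287 in AD controls and 0.243, 0.193, 0.221, 0.175 and 0.236 in AD SB415286 libraries, and the groups did not overlap. In ACD controls it was 0.326 to 0.374 and in ACD SB415286 libraries 0.339 to 0.385. The control groups of the models did not overlap in this ratio either (log2 difference 0.24, ACD minus AD).

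**Figure D4:**
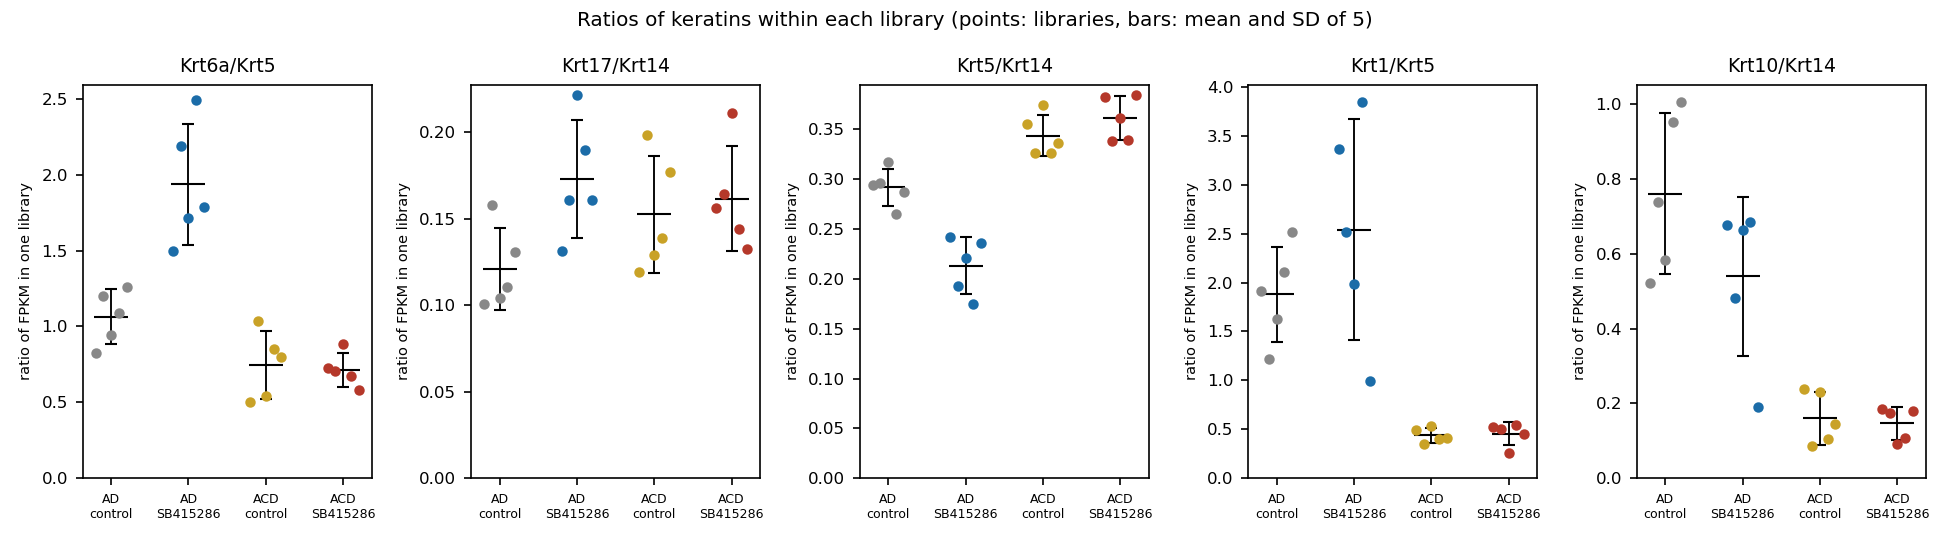
Ratios of FPKM between 2 keratins inside each library, by group, with points for libraries and bars for the mean and SD of 5. Krt6a over Krt5 is 1.50 to 2.49 in AD SB415286 libraries and 0.828 to 1.26 in AD controls, and Krt1 over Krt5 and Krt10 over Krt14 are lower in all ACD libraries of either treatment than in AD controls.

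Lists of related genes held few calls in the AD comparison of all 10 libraries. None of 16 desmosome and anchorage genes, 9 hemidesmosome genes, 13 other epidermal keratins, 5 inner root sheath keratins, 11 EGFR ligands and receptors, 13 cytokines and receptors, 17 companions of wound keratins or 14 non-keratin keratinocyte markers passed. Of 23 transcription factors, Maf passed and was lower (-0.45 ± 0.09, adjusted p = 0.0487). The members with the smallest p in 2 of these lists were Krt79 (-0.65 ± 0.17, adjusted p = 0.0835) and Krt75 (1.15 ± 0.37, adjusted p = 0.127) of the other keratins, and Sprr2d (0.95 ± 0.21, adjusted p = 0.0580) and Sprr2h (1.03 ± 0.25, adjusted p = 0.0678), which encode small proline-rich envelope proteins.

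Without both libraries that stood apart, where 25.7% of all tested genes passed, the lists held more calls. This choice of libraries was made from the same data and can itself raise the number of calls. Of 12 tested other keratins 1 was higher, Krt75 (1.25 ± 0.36), and 2 were lower, Krt79 (-0.73 ± 0.16) and Krt8 (-0.98 ± 0.29). Of 16 desmosome genes 2 were higher, Dsg2 (0.49 ± 0.12) and Cdsn (0.80 ± 0.21), and of 9 hemidesmosome genes Dst was higher (0.73 ± 0.14) and Cd151 lower (-0.33 ± 0.09). Of 23 transcription factors Fosl2 was higher (0.61 ± 0.12), and Maf (-0.54 ± 0.08), Gata3 (-0.59 ± 0.16) and Tfap2c (-0.32 ± 0.10) lower. Of 11 EGFR ligands and receptors 2 were higher, Errfi1 (1.04 ± 0.23), which encodes an inhibitor of the receptor, and the ligand Areg (0.95 ± 0.23).

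In the same fit 7 of 13 cytokines and receptors were lower and 1 higher, with Tnf at -1.46 ± 0.27, Il19 at -1.67 ± 0.34, Osm at -1.43 ± 0.34 and Osmr at 0.58 ± 0.13. Of 17 wound companions 5 were lower and 3 higher, with S100a9 at -1.38 ± 0.13, S100a8 at -1.16 ± 0.13, Sprr2h at 1.16 ± 0.25 and Sprr2d at 0.94 ± 0.22. None of 5 inner root sheath keratins and 14 non-keratin keratinocyte markers passed. Markers of other tissues passed as well: 9 of 11 cartilage, 7 of 10 sebaceous gland, 5 of 8 fibroblast, 7 of 8 T cell and 5 of 8 neutrophil markers were lower, and 6 of 8 melanocyte markers higher.

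Over all 10 AD libraries, markers of other tissue layers were uneven between the groups. Summed cartilage markers were 529.6 to 787 CPM with SB415286 and 765 to 1146 in controls (2 of 11 tested passed, both lower), summed skeletal muscle markers 159 to 3567 and 1845 to 4476 (0 of 12 passed), and summed inner root sheath keratins 4.91 to 71.1 and 1.39 to 29.5. Their part in the keratin values was not tested.

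The ACD comparison asked the same of the higher dose in ACD ears. Again none of the 10 keratins passed in edgeR, where 0.0264% of 15150 tested genes did, 3 higher and 1 lower. None passed in DESeq2 or limma voom either, where 2.75% and 0.112% of genes did. At an unadjusted p under 0.05 there were 2 of 10, Krt6b and Krt77, where 13.8% of all tested genes were under it. Of the 10 keratins 9 had a negative log2 fold change (median -0.21, against -0.01 for all tested genes), and Krt77 had a positive one, with Krt1 just above 0 by limma voom. No keratin had groups that did not overlap, where 3.31% of tested genes had.

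Krt77 was at 8.36, 8.08, 7.59, 7.14 and 6.78 CPM in ACD SB415286 libraries 3, 4, 5, 7 and 8. Of these 4 were above all controls, which reached 7.09 CPM (log2 fold change 0.70 ± 0.30, interval 0.04 to 1.36, adjusted p = 0.339). The level rests on few reads, 37.5 to 142 expected counts in ACD controls and 128 to 167 with SB415286, and the SD of the 5 SB415286 libraries was 8.56% of their mean. Its ratio to Krt1 was 0.00300, 0.00120, 0.00275, 0.00224 and 0.00286 in controls and 0.00453, 0.00531, 0.0105, 0.00337 and 0.00292 with SB415286 (log2 difference 1.06 ± 0.40, exact permutation p = 0.0159, adjusted p = 0.0847).

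Krt2 was at 535, 550.0, 448, 413 and 1005 CPM with SB415286, 2 libraries below all controls (log2 fold change -0.69 ± 0.33, adjusted p = 0.375). Krt1 was at 1864, 1475, 693, 2092 and 2373 CPM (-0.08 ± 0.29, interval -0.71 to 0.55) and Krt10 at 1466, 1278, 591, 1040.2 and 2064 CPM (-0.33 ± 0.36, interval -1.12 to 0.45). The values of both lay across the range of the controls, with library 5 the lowest and library 8 the highest in each.

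Krt5 was at 3200.4, 2623, 2438, 3437 and 4682 CPM with SB415286 (log2 fold change -0.15 ± 0.16) and Krt14 at 5323, 4892, 4199, 6419.9 and 7811 CPM (-0.27 ± 0.15, adjusted p = 0.455). For Krt14, 3 libraries were below all controls and library 8 above all. Krt6b was at 3116, 2359.6, 2835, 3859 and 4466 CPM, against 3641, 5731, 4100.3, 4345 and 3872 CPM in controls. Of its SB415286 libraries 3 were below all controls and none above (-0.40 ± 0.18, interval -0.78 to -0.01, adjusted p = 0.356).

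Krt6a was at 2383, 1898, 2215, 2365 and 2777 CPM with SB415286 (log2 fold change -0.23 ± 0.17, adjusted p = 0.582), within the range of its controls but for library 4. Krt16 was at 2869, 2167, 2643, 3247 and 4079 CPM, against 3270.4, 4151, 3201, 3156 and 3069 CPM in controls (-0.18 ± 0.15, adjusted p = 0.641). Krt17 was at 846, 815, 915, 932 and 1044 CPM, against 889, 1479.8, 870.4, 910.4 and 1014 CPM in controls (-0.19 ± 0.14, adjusted p = 0.583). Both overlapped, and ACD control 3 was the highest of the 5 controls in each of the 4 wound keratins. The ratio of Krt6a to Krt5 in the ACD model was 0.501, 1.03, 0.541, 0.850 and 0.799 in controls and 0.727, 0.706, 0.887, 0.672 and 0.579 with SB415286 (log2 difference -0.02 ± 0.22, exact permutation p = 0.929).

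No member of the keratin-related lists passed in the ACD comparison. Those with the smallest p included the transcription factor genes Junb (log2 fold change 0.42 ± 0.11, adjusted p = 0.181) and Cebpb (0.44 ± 0.13, adjusted p = 0.198), Osm (0.57 ± 0.14, adjusted p = 0.167) and Il1b (0.60 ± 0.18, adjusted p = 0.205) of the cytokines, and the desmosomal cadherin gene Dsg3 (-0.31 ± 0.15, adjusted p = 0.397). The non-keratin keratinocyte markers had 12 of 14 negative log2 fold changes (median -0.13), with summed levels of 6564 to 10705 CPM against 7450.1 to 9323 in controls. Summed neutrophil markers were 6984 to 10205 CPM with SB415286 and 3475 to 5975 in controls (0 of 9 passed). Their part in the keratin values was not tested.

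Whether SB415286 acted differently on keratins in the 2 models was tested in a fit of all 20 libraries, with dose and model changing together. None of the 10 keratins passed in edgeR, where 0.0510% of 15700 tested genes did, nor in DESeq2 or limma voom, where 1.13% and 7.21% did. In edgeR 3 of 10 had an unadjusted p under 0.05, where 12.6% of tested genes had. The difference in log2 fold change, ACD minus AD, was -0.72 ± 0.25 for Krt17 (interval -1.24 to -0.20, adjusted p = 0.258) and -0.64 ± 0.27 for Krt6a (interval -1.20 to -0.08, adjusted p = 0.333). All 4 wound keratins had negative differences (median -0.52), with -0.39 ± 0.31 for Krt16 and -0.41 ± 0.35 for Krt6b. The side-by-side values were 0.53 in AD and -0.19 in ACD for Krt17, and 0.41 and -0.23 for Krt6a.

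For Krt77 the difference was 1.77 ± 0.80 (interval 0.10 to 3.45, adjusted p = 0.371), from -1.07 in AD and 0.70 in ACD. Krt2 had negative log2 fold changes in both models and a difference of 0.40 ± 0.58. Krt1 (-0.07 ± 0.50), Krt10 (0.13 ± 0.54), Krt5 (0.35 ± 0.24) and Krt14 (-0.27 ± 0.25) had intervals that included 0. Without both AD libraries that stood apart, the differences were -0.74 ± 0.26 for Krt17 (adjusted p = 0.0683), -0.64 ± 0.29 for Krt6a (adjusted p = 0.145) and 1.25 ± 0.64 for Krt77 (adjusted p = 0.198), where 13.4% of tested genes passed.

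Beyond group means, many keratins varied together from library to library, also across their groups. Pearson correlations of log2 CPM over the 20 libraries after subtraction of group means are given as a description, since values of a library share its depth, and no p was computed. Krt6b and Krt16 had an r of 0.95, Krt14 and Krt16 of 0.90, Krt5 and Krt14 of 0.87, Krt6a and Krt6b of 0.83, and Krt1 and Krt10 of 0.83. Krt6a and Krt6b, and Krt14 and Krt16, share part of their sequence. The r values between keratins are given over all 20 libraries only. Single libraries can weigh on them, such as AD SB415286 6, the highest of its group in every keratin. Between the 4 suprabasal and the 4 wound keratins the 16 values ran from -0.04 to 0.51 with a median of 0.11, and between the 6 pairs of wound keratins from 0.61 to 0.95. Between basal and wound keratins the 8 values ran from 0.20 to 0.90 with a median of 0.68, and between basal and suprabasal keratins from 0.08 to 0.72 with a median of 0.36, the highest being that of Krt14 and Krt1. Among the suprabasal keratins Krt2 had its lowest r with Krt1 (0.20) and its highest with Krt10 (0.60).

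**Figure D5:**
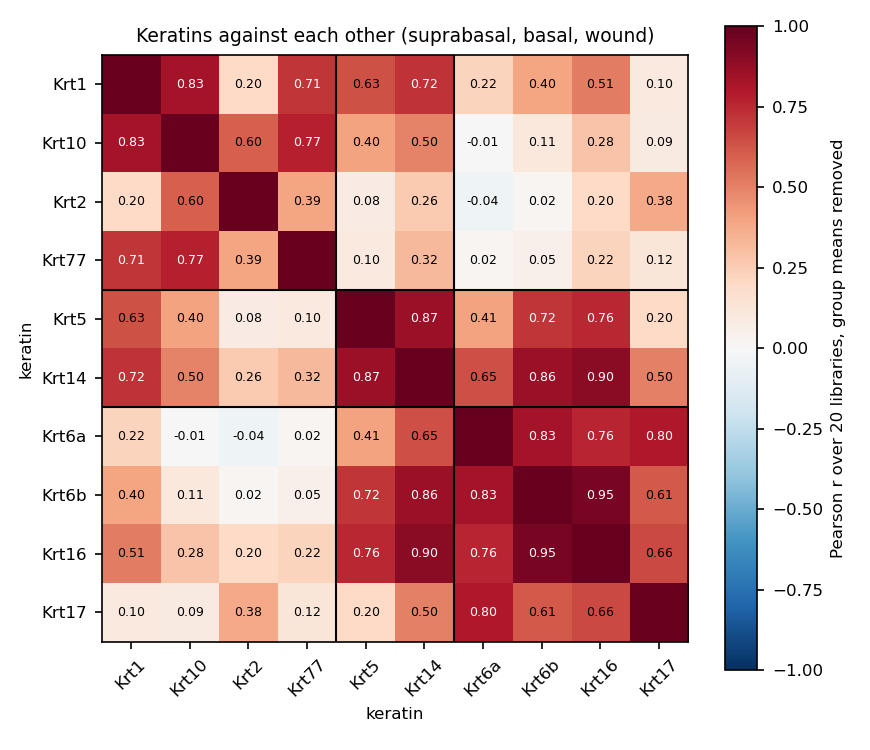
Pearson r of log2 CPM between the 10 keratins over 20 libraries after removal of the 4 group means, with black lines between the suprabasal, basal and wound keratins. Krt6b and Krt16 reach 0.95 and Krt14 and Krt16 0.90, while values between suprabasal and wound keratins are at most 0.51.

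Genes other than keratins with the most similar pattern over these 20 libraries were ranked among 14495 genes of at least 1 CPM. For Krt14 they were Il17rc (r = 0.91), Fat2 (0.91), Il1rl2 (0.89), Pkp3 (0.89) and Gstm6 (0.89). For Krt10 they were Serpina12 (r = 0.95), Lor (0.94), Cd109 (0.94), Cyp2j6 (0.94) and Sh3gl2 (0.93), and Lor encodes loricrin, a main protein of the cornified envelope. For Krt16 they were Rbp2 (r = 0.89), Pkp3 (0.88), Il17rc (0.88), Pak6 (0.87) and Il1rl2 (0.85). The genes Il17rc, Il1rl2 and Pkp3, which encode a subunit of the IL-17 receptor, the IL-36 receptor and a desmosomal plaque protein, stood on the lists of both Krt14 and Krt16. Krt14 and Krt16 had an r of 0.90 with each other and share part of their sequence. Their lists are therefore not separate observations. Without the 2 libraries farthest from the median the 15 values were 0.80 to 0.94.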

How the data were processed

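Ear RNA was captured with oligo(dT) and sequenced on an MGISEQ-2000, per the labels' protocols. The authors deposited expected counts, FPKM and TPM per gene and library, 1 table per model. HISAT, HISAT2, Bowtie2 2.2.5, RSEM 1.2.8 and the builds GRCm38.p6 and GRCh38.p13 are named, without roles, per the submitters' processing notes. All per-sample columns were matched to a library by name (0 left over). The authors' group averages in the same tables were not used.

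Expected counts were rounded to whole numbers, filtered (filterByExpr), TMM-scaled and tested with robust edgeR 4.0.16 quasi-likelihood fits in R 4.3.3, within each model for SB415286, and over all 20 libraries for the controls and the difference of effects. Benjamini-Hochberg adjustment ran over all tested genes, with a threshold of 0.05 and 95% intervals. Alternatives used DESeq2 1.42.0 and limma 3.58.1, the latter also on log2(FPKM + 1) and log2(FPKM + 0.1), plus other scalings and filters and left-out libraries. FPKM ratios were compared by exact 2-sided permutation tests (Python 3.11.15, scipy 1.17.1). Scripts were tested on simulated data. Libraries held 18.2 to 20.9 M counts, and no pair within a group agreed within sampling noise (lowest chi-square per gene 11.4). Transcript and coding sequences and strands come from GENCODE, and gene positions and start regions from RefSeq.

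The keratins and lists were chosen with earlier results of these data known. All 10 keratins are named, of each list up to 4 members past the threshold with the smallest p or otherwise up to 2, and for Krt14, Krt10 and Krt16 the 5 genes of highest r.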

Additional observations from a re-analysis of the deposited data

Results flagged for a closer look

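In 40 groups of 5 libraries, 10 keratins by 4 groups, 5 had 1 library far from the other 4 by Dixon's criterion, and chance alone marks about 1 in 20 groups. AD control 2 had 3939 CPM of Krt1, against 7069.7 to 8034 in the other AD controls. AD SB415286 6 had 70.0 CPM of Krt77, against 2.48 to 19.2 in the others of its group. ACD control 3 was high in 2 wound keratins, with 4151 CPM of Krt16 against 3069 to 3270.4, and 1479.8 CPM of Krt17 against 870.4 to 1014. ACD SB415286 8 had 1005 CPM of Krt2, against 413 to 550.0 in the others of its group.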

How the results depend on the processing

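No keratin passed in either SB415286 comparison or in their difference under any alternative run, except Krt5 in the AD model: the count of keratins called was 1 with DESeq2, 1 with limma voom and 1 without both AD libraries that stood apart. Between controls 4 keratins passed, and 4 to 5 with any library left out. Values near 0 changed sign. In AD, Krt1 was 0.0012 by RLE scaling and 0.0012 by DESeq2, 0.37 with the replicate block and 0.22 without both libraries. AD Krt6b was -0.023 by upper quartile scaling, -0.21 by voom, -0.12 by limma on FPKM with either pseudocount and -0.12 without both libraries, and AD Krt14 was -0.029, -0.071, -0.10 and -0.024. ACD Krt1 was 0.0050 by voom. For the difference, Krt1 was 0.036 by voom and 0.045 and 0.044 by limma on FPKM + 1 and + 0.1, and Krt10 was -0.25 with the block and -0.13 without both libraries. Krt16 between controls was -0.018 without both libraries. The cause was not tested.

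With 1 library left out, log2 values that changed sign ran, in AD, from -0.28 to 0.20 for Krt1, -0.15 to 0.12 for Krt14, -0.038 to 0.36 for Krt16 and -0.22 to 0.20 for Krt6b. In ACD, Krt1 ran from -0.23 to 0.12. ACD ratio differences ran from -0.052 to 0.22 for Krt1/Krt5, -0.26 to 0.11 for Krt10/Krt14, -0.0070 to 0.11 for Krt16/Krt14, -0.0087 to 0.19 for Krt17/Krt14 and -0.15 to 0.11 for Krt6a/Krt5. Between controls, Krt16 ran from -0.017 to 0.18 and Krt6b from -0.15 to 0.052, and in the difference Krt1 ran from -0.28 to 0.20 and Krt10 from -0.11 to 0.42.

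Counts over all genes depended on the method. In AD, 187 genes passed in edgeR, 1227 in DESeq2, 3575 in voom, 48 without a filter, 3894 without both libraries, 1122 without SB415286 7 and 1423 without control 6. It was 21 without SB415286 6, 1 without SB415286 2, and 0 without SB415286 3 or 4 or control 1, 2, 4 or 5. The 89 higher and 98 lower became 66 and 104 by upper quartile scaling and 64 and 156 by limma on log2(FPKM + 1). In ACD, 4 passed in edgeR, 416 in DESeq2, 17 in voom, 13 by upper quartile scaling and 12 by limma on FPKM. For the difference, 8 passed in edgeR, 178 in DESeq2, 1132 in voom, 14 by upper quartile scaling, 5 without a filter and 2117 without both libraries, and 1 to 312 with any 1 library left out (312 without AD SB415286 7, 234 without AD control 6). The ACD count then ran from 2 to 18.

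Replicate numbers gave no clear sign of pairing: same-numbered deviations correlated at -0.20 to 0.25 in AD and -0.18 to 0.20 in ACD. Each model had only 3 same-numbered pairs, too few to show that there is no pairing. With the number as a block, 0 keratins passed in AD, ACD and the difference, and 0, 1 and 1 of all genes. That fit compares treatments only within the same-numbered pairs, so it rests on few libraries.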
